A study of Mus musculus with 8 samples.

Results

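Insulin receptor signaling and the fasting genes under FOXO control were examined through 10 genes, chosen by name: the receptor gene *Insr*, the adaptor genes *Irs1* and *Irs2*, the transcription factor genes *Foxo1* and *Foxo3*, the coactivator gene *Ppargc1a*, and the target genes *Igfbp1*, *Pck1*, *G6pc* and *Pdk4*. All 10 were among the 14506 genes of the deposited table, and 9 of them were abundant enough to be tested (a mean of at least 10 normalized reads per liver), *Pdk4* being the exception. Livers came from 8 mice of a C57BL/6 knock-in line, 4 *Rragc* +/+ and 4 *Rragc* S74N/+, the latter labelled KI/+. RagC, the product of *Rragc*, is a small GTPase through which amino acid supply reaches mTORC1, a kinase complex that drives cell growth. S74N is an activating amino acid substitution, here made by Cas9 editing and present on 1 allele in every cell. The mice were 3 months old, apart from *Rragc* +/+ replicate 4 and *Rragc* S74N/+ replicate 3 at 2.5 months and *Rragc* S74N/+ replicate 4 at 2 months. The standard chow of the colony is stated by the study, while sex, feeding state and hour of collection are not given in the labels. Replicate numbers name livers in sample order, and each library is labelled as whole liver of a separate mouse.

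Insulin that binds its receptor on hepatocytes leads to phosphorylation of the adaptors encoded by *Irs1* and *Irs2*, and through PI3K and AKT to phosphorylation of FOXO proteins, which then leave the nucleus. When insulin is low, FOXO proteins stay in the nucleus and, with cofactors such as the product of *Ppargc1a*, raise transcription of genes for glucose output and of *Igfbp1*. mTORC1 and its kinase S6K can feed back on the adaptor proteins, which is the textbook link between nutrient signaling through RagC and insulin signaling.

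Transcripts of the edited gene *Rragc* were counted at a mean of 84.1 normalized reads per *Rragc* +/+ liver (SD 20.4) and 76.6 per *Rragc* S74N/+ liver (SD 7.32; log2 fold change -0.11, SE 0.25), which does not check the labels because a substitution need not change transcript level. Reads recovered over all 14506 genes ranged from 4313076 to 6632108 per liver. Reads were taken from the 3′ end of each transcript, so a level follows the number of transcript copies and not transcript length. In whole tissue, fewer cells of a type and less RNA per cell cannot be told apart. Markers of hepatocytes, the main cell of the liver, summed to 235706 to 334396 normalized reads in *Rragc* +/+ and 255532 to 435488 in *Rragc* S74N/+ livers. Of 6 skeletal muscle markers none was listed in the table, and of 7 adipocyte markers the defining *Adipoq*, *Plin1*, *Lep* and *Retn* were not listed.

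The promoters of *Igfbp1*, *Pck1* and *G6pc* are shown because these 3 target genes had the highest log2 fold changes among the 10 genes. Each is a RefSeq sequence on GRCm38.p6 with 250 bases before and 50 bases from the start site on, printed 5′ to 3′ on the strand of the gene. RefSeq sequences were matched by symbol for 9 of the 10 genes. *Igfbp1* is at chr11:7197537-7197836 (+), *Pck1* at chr2:173152823-173153122 (+) and *G6pc* at chr11:101367466-101367765 (+). Capitals mark matches, on either strand, to CAAAACA (the core of the insulin response element that FOXO proteins bind), GTAAACA (a general forkhead core), ACGTCA (part of the cyclic AMP response element) and TATAAA (the TATA box).
Igfbp1: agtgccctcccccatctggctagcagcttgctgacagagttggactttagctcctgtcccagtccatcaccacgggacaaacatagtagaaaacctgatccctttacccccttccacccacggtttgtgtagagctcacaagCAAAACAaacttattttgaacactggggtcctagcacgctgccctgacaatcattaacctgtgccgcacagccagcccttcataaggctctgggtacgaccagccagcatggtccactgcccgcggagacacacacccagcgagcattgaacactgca
Pck1: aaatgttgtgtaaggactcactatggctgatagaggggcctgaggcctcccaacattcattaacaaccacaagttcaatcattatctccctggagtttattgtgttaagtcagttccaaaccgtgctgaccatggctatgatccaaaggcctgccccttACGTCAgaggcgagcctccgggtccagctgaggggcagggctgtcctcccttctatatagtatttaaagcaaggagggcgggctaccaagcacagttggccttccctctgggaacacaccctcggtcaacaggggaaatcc
G6pc: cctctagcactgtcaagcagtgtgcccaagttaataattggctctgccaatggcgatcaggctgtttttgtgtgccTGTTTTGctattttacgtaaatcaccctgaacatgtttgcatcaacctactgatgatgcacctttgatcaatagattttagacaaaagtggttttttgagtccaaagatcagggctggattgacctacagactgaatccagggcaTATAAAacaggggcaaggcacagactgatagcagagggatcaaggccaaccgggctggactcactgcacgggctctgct
The *Igfbp1* sequence held CAAAACA, with its first base 108 bases before the start site. In *G6pc* the same motif was read on the other strand as TGTTTTG, 174 bases before the start site, together with TATAAA at 29 bases before it. *Pck1* held ACGTCA at 91 bases before the start site and, within these 300 bases, no match to either forkhead core. Sequence farther from the start site was not searched. The CAAAACA core was also found in the adaptor promoters, with 2 matches in *Irs1* and 1 in *Irs2*, and ACGTCA in *Ppargc1a*, while *Foxo1*, *Foxo3* and *Pdk4* had no match to any of the 4 motifs. No match overlapped another. Among all 32851 promoters of this length, 6.28% held CAAAACA, 3.65% GTAAACA, 7.51% ACGTCA and 13.6% TATAAA. A match is a run of letters and was not examined for binding.

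To ask how the 10 genes differed by *Rragc* genotype, each was read from a limma fit over 11174 genes, in which a positive log2 fold change means higher in *Rragc* S74N/+. Of the 9 tested genes, 8 had a positive and 1 a negative log2 fold change, with a median of 0.49 against 0.01 over all tested genes; 51.3% of all tested genes were positive. None passed an adjusted p under 0.05, a threshold that 1 gene, or 0.00895%, of those tested passed. At an unadjusted limma p under 0.05 there were 2 of the 9, *Igfbp1* and *Pck1*, both higher in *Rragc* S74N/+, and none was lower. Among all tested genes 2.37% were higher and 2.8% lower at that threshold, 5.17% in either direction. The same 2 genes had a log2 fold change of at least 1 in size, as had 4.47% of all tested genes. Neither edgeR nor DESeq2 on the recovered reads gave any of the 9 an adjusted p under 0.05. Of all tested genes, 0.00895% and 0.0895% passed it. At an unadjusted p under 0.05, edgeR had 2 of the 9 and 618 of all 11174 tested genes, and DESeq2 3 and 675.

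Levels spanned over 2 orders of magnitude. By mean normalized read count over the 8 livers the order was *G6pc* (1733), *Pck1* (1328), *Igfbp1* (602), *Insr* (278), *Foxo1* (235), *Irs2* (204), *Foxo3* (121), *Ppargc1a* (69.97), *Irs1* (51.0) and *Pdk4* (7.34). Among neighbours in this order, *Pck1* was above *Igfbp1* and *Irs1* above *Pdk4* in all 8 livers, and every other neighbouring pair changed places in at least 1 liver. The highest liver was 1.62 times the lowest for *Foxo1*, 1.71 times for *Foxo3* and 2.11 times for *Insr*. For the adaptor genes it was 3.22 times for *Irs2* and 3.95 times for *Irs1*, close to the 4.03 times of *G6pc* and the 4.65 times of *Ppargc1a*. *Pck1*, at 9.63 times, and *Igfbp1*, at 27.9 times, had the widest ranges of the 9 tested genes.

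**Figure D1:**
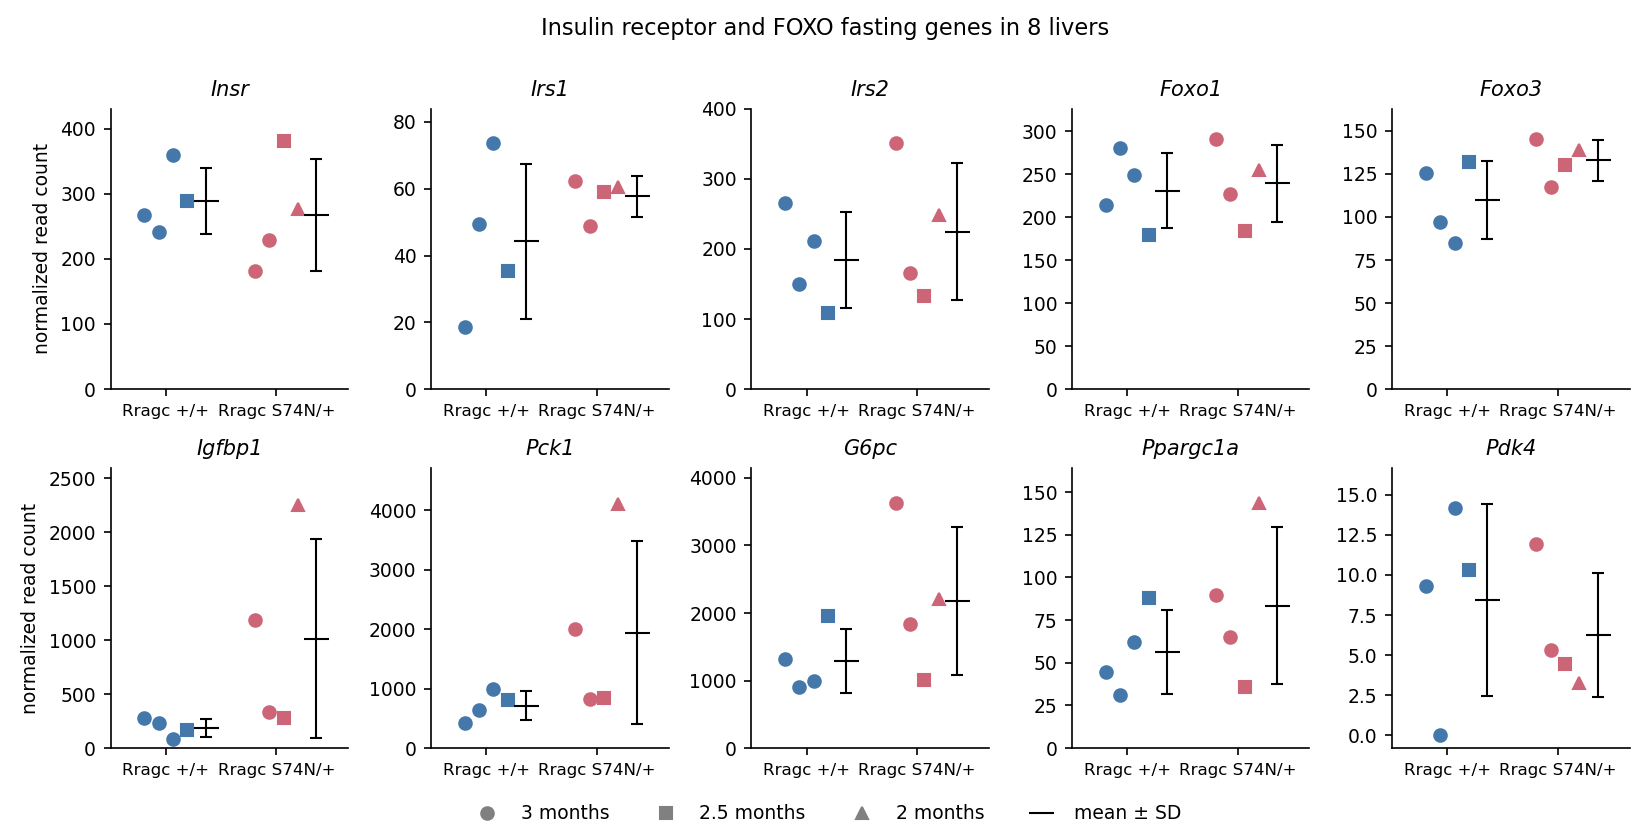
Normalized read count (y axis, linear) of each of the 10 genes in the 4 *Rragc* +/+ and 4 *Rragc* S74N/+ livers (x axis). Points are livers, with the shape giving age in months, and the line with bars beside them is the mean ± SD. For *Igfbp1* all 4 *Rragc* S74N/+ livers lie above the highest *Rragc* +/+ liver, with 2 of them at 1191 and 2252, while the groups overlap in the other 9 panels.

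The receptor gene came first. *Insr* (ENSMUSG00000005534.10; chr8:3122061-3279617, − strand, GRCm38) encodes the insulin receptor. Normalized read counts are given in replicate order for each genotype. For *Insr* they were 267, 241, 359 and 289 in *Rragc* +/+ and 181, 229, 381 and 277 in *Rragc* S74N/+ livers. The groups overlapped, and the highest and the lowest liver were both *Rragc* S74N/+. Group means were 289 ± 50.7 and 267 ± 85.5 (SD, n = 4 each), with a log2 fold change of -0.15 (SE 0.25, 95% interval -0.69 to 0.39, limma adjusted p = 0.900). The difference was less than the spread between replicates. *Insr* was the only tested gene of the 9 with a negative log2 fold change, and without *Rragc* S74N/+ replicate 1 it was 0.02.

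The adaptor genes followed. *Irs1* (ENSMUSG00000055980.2; chr1:82233101-82291416, − strand) and *Irs2* (ENSMUSG00000038894.7; chr8:10984681-11008458, − strand) encode the proteins that link the receptor to PI3K, and *Irs2* is itself a gene that FOXO proteins raise in fasting. *Irs1* counts were 18.6, 49.6, 73.6 and 35.5 in *Rragc* +/+ and 62.4, 48.9, 59.1 and 60.4 in *Rragc* S74N/+ livers, from 20 to 74 reads. All 4 *Rragc* S74N/+ livers were above the *Rragc* +/+ mean but within the *Rragc* +/+ range. The log2 fold change of *Irs1* was 0.53 (SE 0.37, 95% interval -0.28 to 1.34, limma adjusted p = 0.846), and it was 0.18 without *Rragc* +/+ replicate 1. *Irs2* counts were 266, 149.6, 211 and 109 in *Rragc* +/+ and 352, 165, 133 and 249 in *Rragc* S74N/+ livers. The highest liver was *Rragc* S74N/+ replicate 1 and the groups overlapped through the rest of their range. Its log2 fold change was 0.27 (SE 0.34, 95% interval -0.47 to 0.999, limma adjusted p = 0.874), and 0.02 without that liver or 0.04 without *Rragc* +/+ replicate 4.

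A ratio of a pair of genes within a liver does not depend on how libraries were scaled, and 3 such ratios were compared by exact two-sided permutation tests over all 70 labellings. The ratio of *Irs2* to *Irs1* was 14.2, 3.02, 2.87 and 3.08 in *Rragc* +/+ and 5.63, 3.38, 2.25 and 4.12 in *Rragc* S74N/+ livers. *Rragc* +/+ replicate 1 stood far above the others, with the lowest *Irs1* of all livers (20 reads) and the highest *Irs2* of its group. The mean log2 ratio differed by -0.26 (exact permutation p = 0.8286, adjusted over the 3 ratios 0.8286), and by 0.29 in the other direction without that liver. For *Foxo1* to *Foxo3* the ratio ranged from 1.36 to 2.93 in *Rragc* +/+ and from 1.41 to 2.01 in *Rragc* S74N/+ livers (difference of log2 means -0.24, exact permutation p = 0.457, adjusted 0.686). For *Pck1* to *G6pc* it ranged from 0.323 to 0.990 and from 0.447 to 1.85 (difference 0.50, exact permutation p = 0.429, adjusted 0.686). That difference was 0.09 without *Rragc* S74N/+ replicate 4 and -0.31 in 3-month-old mice alone. The groups overlapped for all 3 ratios.

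The transcription factor genes had the narrowest spread. *Foxo1* (ENSMUSG00000044167.6; chr3:52268336-52353221, + strand) encodes the main FOXO protein of liver in glucose control. Its counts were 214, 281, 249 and 179 in *Rragc* +/+ and 291, 228, 184 and 255 in *Rragc* S74N/+ livers. The lowest liver of each genotype was the one aged 2.5 months. Group means were 231 ± 43.7 and 239 ± 45.3 (SD, n = 4 each), the log2 fold change was 0.05 (SE 0.23, 95% interval -0.43 to 0.54, limma adjusted p = 0.964), and its sign was negative without *Rragc* +/+ replicate 4 (-0.06) or *Rragc* S74N/+ replicate 1 (-0.05). *Foxo3* (ENSMUSG00000048756.11; chr10:42181841-42276755, − strand), its close relative, had counts of 126, 97.3, 84.9 and 132 in *Rragc* +/+ and 145, 117, 130.4 and 139 in *Rragc* S74N/+ livers. All 4 *Rragc* S74N/+ livers were above the *Rragc* +/+ mean and 2 were above the highest *Rragc* +/+ liver. The log2 fold change of *Foxo3* was 0.29 (SE 0.23, 95% interval -0.20 to 0.78, limma adjusted p = 0.846), and 0.17 without *Rragc* +/+ replicate 3. These are transcript levels, and FOXO activity is set mainly by phosphorylation and location of the protein, which were not measured in these libraries.

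*Ppargc1a* (ENSMUSG00000029167.13; chr5:51454250-51567726, − strand) encodes a coactivator that is induced in liver by fasting and glucagon. Its counts were 44.7, 30.9, 62.2 and 87.8 in *Rragc* +/+ and 90.0, 64.9, 35.7 and 144 in *Rragc* S74N/+ livers. The 2 highest livers were *Rragc* S74N/+ replicates 4 and 1, and the groups overlapped. The log2 fold change was 0.49 (SE 0.42, 95% interval -0.42 to 1.40, limma adjusted p = 0.848). It was 0.17 without *Rragc* S74N/+ replicate 4 and 0.24 without *Rragc* +/+ replicate 2, but 1.078 without both livers aged 2.5 months, a setting chosen after seeing the data. With a term for age in months the log2 fold change of *Ppargc1a* was 0.26, and with age as a factor 0.17.

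The target gene *Igfbp1* showed the widest separation by genotype. *Igfbp1* (ENSMUSG00000020429.7; chr11:7197782-7202546, + strand) encodes a secreted binding protein for insulin-like growth factors that hepatocytes make when insulin is low. Its counts were 275, 235, 80.6 and 168 in *Rragc* +/+ and 1191, 338, 279 and 2252 in *Rragc* S74N/+ livers, from 57 to 2760 reads. All 4 *Rragc* S74N/+ livers were above the highest *Rragc* +/+ liver, the lowest of them by a narrow margin (279 against 275). Of all tested genes, 1.3% had 4 *Rragc* S74N/+ livers above every *Rragc* +/+ liver, and *Igfbp1* was the only one of the 9 tested genes with that order. None of the 9 had the reverse order, which 1.64% of tested genes had, so that the groups did not overlap for 2.94% in either direction. Means were 189.6 ± 85.0 and 1015 ± 924 (SD, n = 4 each), a ratio of 5.35, and the coefficient of variation was 44.8% and 91.1%. The log2 fold change was 2.04 (SE 0.59, 95% interval 0.77 to 3.30), which ranked 14 from the top among 11174 genes, where 0.143% had a log2 fold change of 2 or more. By p it ranked 30, with a limma unadjusted p of 0.00411 and an adjusted p of 0.846. The exact two-sided permutation p was 0.0286, the smallest that 70 labellings can give. Leaving out single livers gave log2 fold changes from 1.48 (without *Rragc* S74N/+ replicate 4) to 2.48.

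*Pck1* and *G6pc* code for the enzymes at the start and the end of gluconeogenesis. *Pck1* (ENSMUSG00000027513.11; chr2:173153048-173159273, + strand), the cytosolic phosphoenolpyruvate carboxykinase, had counts of 425, 648, 986 and 802 in *Rragc* +/+ and 1999, 823, 849 and 4095 in *Rragc* S74N/+ livers. *Rragc* S74N/+ replicates 1 and 4 were above every *Rragc* +/+ liver, whereas replicates 2 and 3 were inside the *Rragc* +/+ range. Means were 715 ± 238 and 1942 ± 1537 (SD, n = 4 each), a ratio of 2.71. The log2 fold change was 1.18 (SE 0.45, 95% interval 0.21 to 2.14, limma unadjusted p = 0.0207, adjusted p = 0.846; exact permutation p = 0.114). Without *Rragc* S74N/+ replicate 4 it was 0.71, and with a term for age as a factor it was 0.72.

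*G6pc* (ENSMUSG00000078650.2; chr11:101367561-101377903, + strand), the catalytic subunit of glucose-6-phosphatase, which releases free glucose, had counts of 1314, 902, 996 and 1956 in *Rragc* +/+ and 3629, 1842, 1014 and 2211 in *Rragc* S74N/+ livers. The highest liver was *Rragc* S74N/+ replicate 1, and *Rragc* S74N/+ replicate 3 was within the lower part of the *Rragc* +/+ range. Means were 1292 ± 477 and 2174 ± 1092 (SD, n = 4 each). The log2 fold change was 0.67 (SE 0.35, 95% interval -0.08 to 1.43, limma adjusted p = 0.846; exact permutation p = 0.200), and 0.38 without *Rragc* S74N/+ replicate 1.

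*Pdk4* (ENSMUSG00000019577.6; chr6:5483351-5496309, − strand), a kinase that shuts off pyruvate dehydrogenase and rises in fasted liver, was barely detected. Its counts were 9.32, 0, 14.1 and 10.3 in *Rragc* +/+ and 11.9, 5.33, 4.46 and 3.26 in *Rragc* S74N/+ livers, from 0 to 13 reads. Where no read was found, in *Rragc* +/+ replicate 2, a count of 0 allows a level of up to 2.81 normalized reads (3 reads, counting error only). The groups overlapped, and no difference was detectable at this depth.

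**Figure D2:**
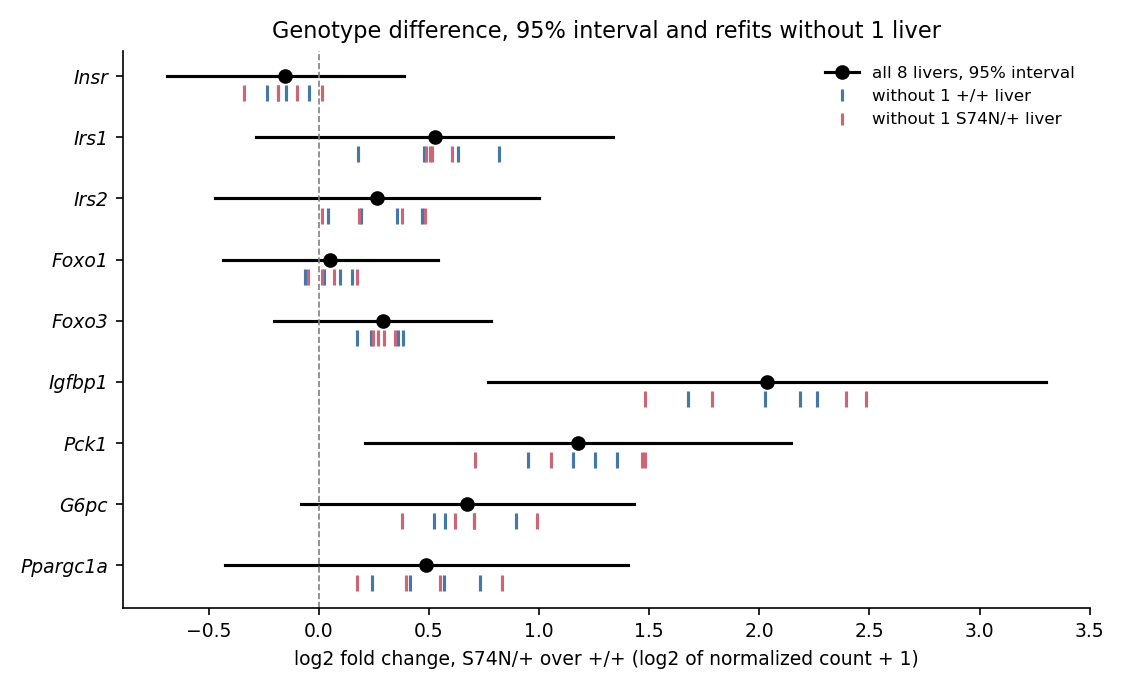
Log2 fold change of the 9 tested genes (x axis, *Rragc* S74N/+ over *Rragc* +/+, from log2 of normalized count + 1), one gene per row. Black points and lines are the limma estimate with its 95% interval and the short coloured ticks are refits without single livers. The intervals of *Igfbp1* (0.77 to 3.30) and *Pck1* (0.21 to 2.14) lie above 0 before adjustment, and ticks on both sides of 0 occur for *Insr* and *Foxo1*.

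Age was not balanced between genotypes, so the targets were also read within ages. Among 3-month-old mice, 3 *Rragc* +/+ and 2 *Rragc* S74N/+, mean *Igfbp1* was 197 and 764, mean *Pck1* 686 and 1411, and mean *G6pc* 1071 and 2736. The log2 fold changes in these 5 livers were 1.86 for *Igfbp1*, 0.98 for *Pck1* and 1.29 for *G6pc*, and the last had a limma unadjusted p of 0.000365 and an adjusted p of 0.292. Of the pair aged 2.5 months, the *Rragc* S74N/+ liver had more *Igfbp1* (279 against 168), about as much *Pck1* (849 against 802) and less *G6pc* (1014 against 1956). *Rragc* S74N/+ replicate 4 had no age match at 2 months and had the highest *Igfbp1*, *Pck1* and *Ppargc1a* of all livers. Its genotype and its age cannot be told apart.

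The highest values were gathered in the same livers. *Rragc* S74N/+ replicate 1 was highest for 4 of the 10 genes and replicate 4 for 3, while no *Rragc* +/+ liver except replicate 3, with 2, was highest for any. Summed over the 10 genes, normalized reads were 2960, 2634, 3116 and 3769 in *Rragc* +/+ and 7952, 3862, 3069 and 9684 in *Rragc* S74N/+ livers. The sum in *Rragc* S74N/+ replicate 3 was thus inside the *Rragc* +/+ range and that of replicate 2 just above it. *Pck1* made up 14.4% to 42.3% of the sum and *G6pc* 22.8% to 51.9%, so it mainly follows these abundant genes.

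**Figure D3:**
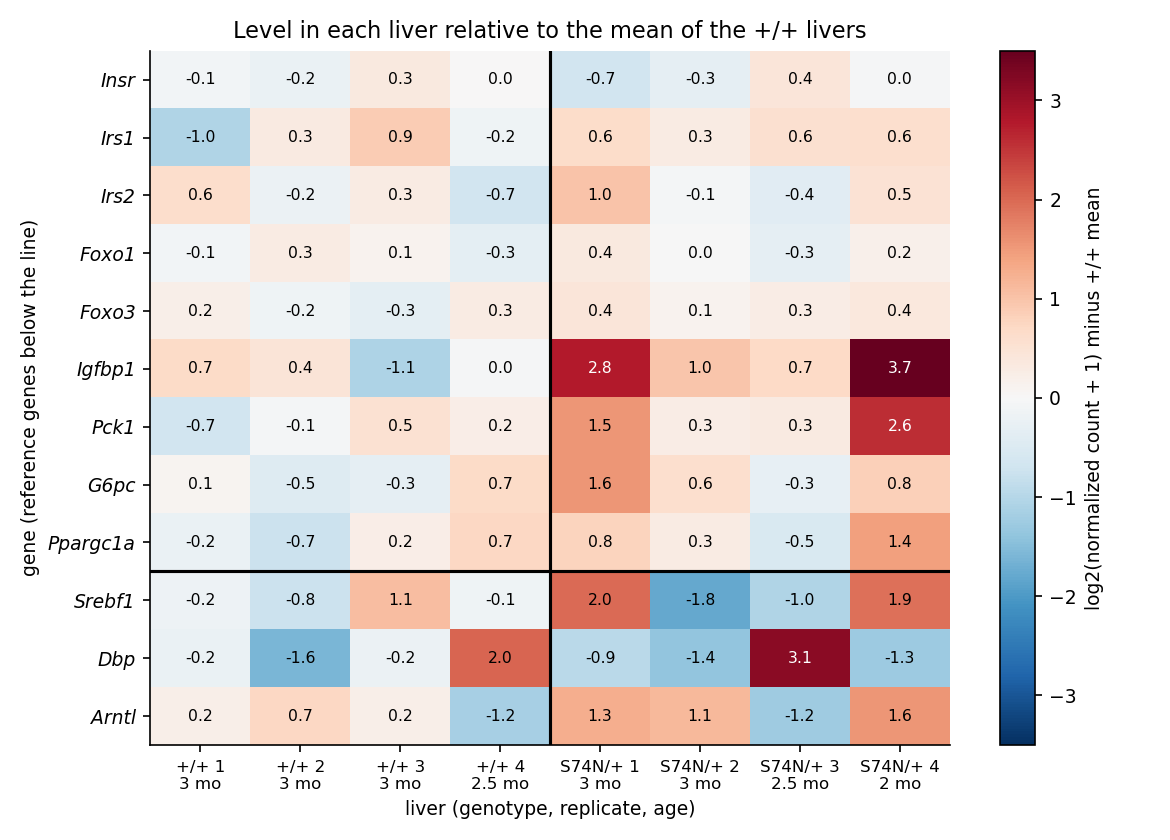
Difference in log2(normalized count + 1) from the mean of the 4 *Rragc* +/+ livers (colour and printed value) for the 9 tested genes and, below the line, 3 reference genes (rows) in each liver (columns, with age in months). *Igfbp1*, *Pck1* and *G6pc* are high in *Rragc* S74N/+ replicates 1 and 4, and *Dbp* is high and *Arntl* low in the livers aged 2.5 months.

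To describe how the genes varied together over the 8 livers, 72 pairs were correlated, 36 among the 9 tested genes and 36 of these genes with 4 references. The references described here are *Srebf1*, which insulin raises in liver, and the clock genes *Dbp* and *Arntl*, which peak at opposite times of day. None of the 72 pairs passed adjustment over all pairs by Pearson's r or by Spearman's rho, and 8 had an exact permutation p under 0.05 for r. Among the 9 genes 27 of 36 pairs were positive, with a median r of 0.38. Such counts were not made for pairs of all tested genes, so nothing particular to these 9 is read from them. *Igfbp1* and *Pck1* correlated with Pearson's r = 0.78 (exact permutation p = 0.0274, adjusted 0.339) and Spearman's rho = 0.52 (exact permutation p = 0.197). Without *Rragc* S74N/+ replicates 4 and 1, r was -0.47, so the positive relation rests on those livers. *Pck1* and *Ppargc1a* had r = 0.80 (exact permutation p = 0.0156, adjusted 0.339) and rho = 0.67 (exact permutation p = 0.0831), with r = 0.37 without the 2 livers farthest from the median of *Pck1*. *G6pc* and *Ppargc1a* had r = 0.78 (exact permutation p = 0.0222, adjusted 0.339) and rho = 0.90 (exact permutation p = 0.00456), and r stayed at 0.81 without the 2 farthest livers. *Foxo3* correlated with *G6pc* (r = 0.73, exact permutation p = 0.0380, adjusted 0.339; rho = 0.88, exact permutation p = 0.00724; 0.59 without the 2 farthest livers) and with *Igfbp1* (r = 0.72, exact permutation p = 0.0444, adjusted 0.339; rho = 0.67, exact permutation p = 0.0831; 0.64 without them). For *Foxo1* with the same target genes r was 0.23 and 0.40. All these r pool both genotypes, so differences between the genotypes enter them. With values centred on the mean of each genotype, 6 of the 72 pairs had an exact permutation p under 0.05 for r, and 0 passed adjustment.

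**Figure D4:**
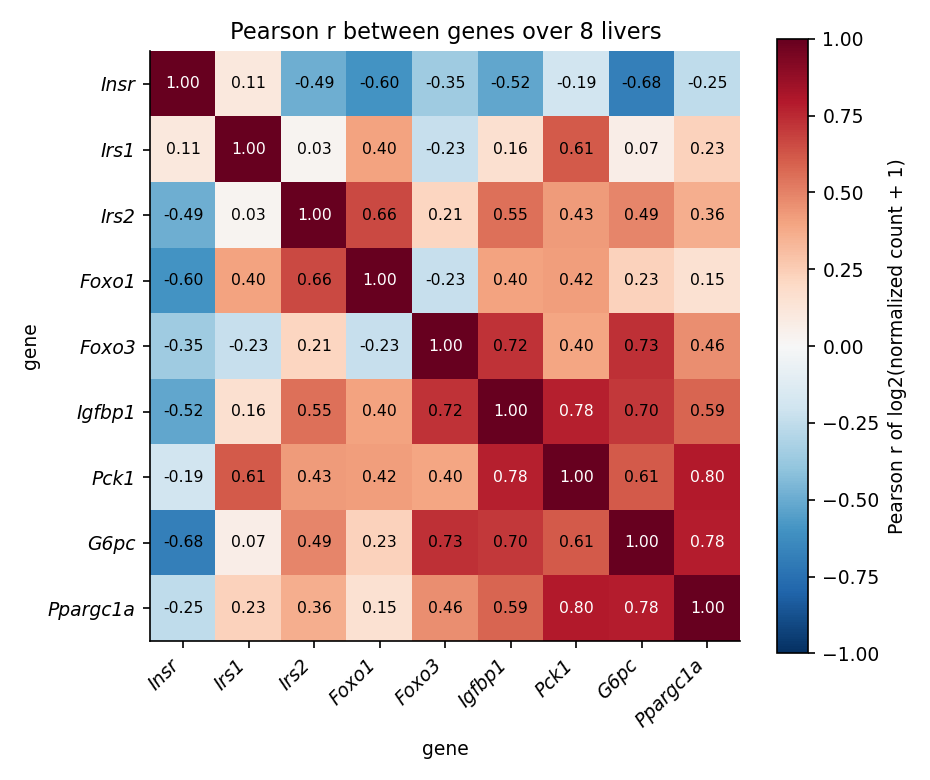
Pearson's r of log2(normalized count + 1) over the 8 livers for each pair of the 9 tested genes (rows and columns, colour and printed value). The block of *Igfbp1*, *Pck1*, *G6pc* and *Ppargc1a* holds values from 0.59 to 0.80, while *Insr* was negatively correlated with all genes but *Irs1*.

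The reference genes were read in the same livers. *Srebf1* counts were 53.1, 35.5, 130.1 and 55.1 in *Rragc* +/+ and 241, 16.9, 29.0 and 235 in *Rragc* S74N/+ livers (log2 fold change 0.27, SE 0.75, limma adjusted p = 0.944). The 2 livers with the highest *Srebf1* were *Rragc* S74N/+ replicates 1 and 4, the same that were highest for *Igfbp1* and *Pck1*. *Pck1* and *Srebf1* correlated with r = 0.74 (exact permutation p = 0.0302, adjusted 0.339; rho = 0.60, exact permutation p = 0.132), and r was 0.09 without those livers.

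*Dbp* counts were 11.2, 3.74, 11.3 and 57.9 in *Rragc* +/+ and 6.43, 4.44, 126 and 4.89 in *Rragc* S74N/+ livers. *Arntl* counts were 56.9, 82.3, 56.6 and 21.5 in *Rragc* +/+ and 120.3, 108, 20.1 and 146 in *Rragc* S74N/+ livers. The livers aged 2.5 months, 1 of each genotype, had the highest *Dbp* and the lowest *Arntl*. Over all livers the genotypes overlapped for *Arntl* (log2 fold change 0.68, SE 0.57, limma adjusted p = 0.846). Among the other 6 livers, a subset chosen after seeing the data, the 3 *Rragc* S74N/+ livers had the 3 highest *Arntl* counts. The share of all tested genes with that order in this subset was not counted, so no difference by genotype is read from it. *Foxo1* correlated with *Dbp* (r = -0.85, exact permutation p = 0.0078, adjusted 0.338; rho = -0.69, exact permutation p = 0.0694) and with *Arntl* (r = 0.85, exact permutation p = 0.0094, adjusted 0.338; rho = 0.76, exact permutation p = 0.0368). Without the livers aged 2.5 months these r were -0.44 and 0.42. The part of feeding state and hour of collection in the levels of the 10 genes was not tested.

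For each tested gene, the genes with the highest Pearson's r over the 8 livers were listed as a description, with no p. *Igfbp1* was most like *Btbd2* (r = 0.96), *Map3k21* (0.95) and *Zfp707* (0.95). *Pck1* was most like *Sept2* (0.98), *Cps1* (0.97), the first enzyme of the urea cycle, and *Fgl1* (0.97). *G6pc* was most like *Snhg3* (0.96), *Exoc5* (0.94) and *Dhdds* (0.93), and *Ppargc1a* like *Cnot6* (0.94) and *Rbm3* (0.93). The nearest genes were *Fance*, *Neo1* and *Gulo* for *Foxo1* (0.98 to 0.99), *Snrpf*, *Trim30d* and *Acot6* for *Foxo3* (0.93 to 0.95), *Cln6*, *Gm48086* and *Tm9sf4* for *Insr* (0.96 to 0.97), *Sun1*, *Mdfic* and *Smim13* for *Irs1* (0.96 to 0.99), and *Gucy1a1*, *Mbd2* and *Gid4* for *Irs2* (0.95 each). None of the 10 genes was among the 3 nearest genes of another.

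The wider pathway was described with lists of related genes, in none of which a gene passed adjustment in the limma fit. Of 37 other genes that lead from the insulin receptor to AKT, 35 were in the table and 33 were tested. Log2 fold changes were positive for 20 and negative for 13, with a median of 0.05, and none had an unadjusted p under 0.05. The smallest p values were those of *Pik3cd*, a catalytic PI3K subunit of leukocytes (15.7 ± 3.96 and 32.8 ± 19.3, SD, n = 4 each; log2 fold change 0.85, limma adjusted p = 0.846), and *Socs3*, an inhibitor of cytokine and insulin receptor signaling (15.9 ± 24.4 and 33.9 ± 30.0; 1.66, limma adjusted p = 0.846). The sum of this list was 7044 to 7269 normalized reads in *Rragc* +/+ and 7058 to 7528 in *Rragc* S74N/+ livers.

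Of 25 other FOXO factors, partners and modifiers 23 were tested, 16 with a positive and 7 with a negative log2 fold change (median 0.14). Of all tested genes 2.37% were higher at an unadjusted limma p under 0.05, and of these 23 genes 1 was. This was *Klf15*, a transcription factor of amino acid use and gluconeogenesis in fasting, with counts of 38.2, 90.7, 84.9 and 48.6 in *Rragc* +/+ and 172, 88.9, 80.2 and 217 in *Rragc* S74N/+ livers (log2 fold change 1.04, SE 0.38, limma adjusted p = 0.846). As for *Pck1*, only *Rragc* S74N/+ replicates 1 and 4 were above the *Rragc* +/+ range. Of 36 further FOXO target and fasting genes 32 were tested, and they were evenly split, 16 positive and 16 negative, with a median of 0.02 beside 0.01 over all tested genes. At an unadjusted limma p under 0.05, 1 of the 32 was higher, again beside 2.37% of all tested genes. It was *Igfbp2*, another binding protein of insulin-like growth factors (905 ± 597 and 1653 ± 735, SD, n = 4 each; log2 fold change 0.99, SE 0.43, limma adjusted p = 0.846).

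Of 15 genes that insulin induces in fed liver 14 were tested, 4 positive and 10 negative, with a median of -0.15 and none at an unadjusted p under 0.05. The smallest p values were those of *Gpam*, an enzyme of triglyceride synthesis (36.5 ± 8.03 and 22.4 ± 13.0, SD, n = 4 each; log2 fold change -0.89, limma adjusted p = 0.846), and *Fasn*, the fatty acid synthase (3552 ± 2302 and 2382 ± 735; -0.42, limma adjusted p = 0.850).

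Lists that mark other states and cells were read beside these values. Of all tested genes, 2.37% were higher and 2.8% lower at an unadjusted limma p under 0.05. Of 12 immediate early and stress genes 6 were tested and all 6 were positive, with a median of 0.67. The sum of the listed genes was 249 to 277 normalized reads in *Rragc* +/+ livers and 522, 288, 229.6 and 1078 in the *Rragc* S74N/+ livers, so the livers with the most *Igfbp1* and *Pck1* also had the most of these transcripts. *Junb*, the 1 gene of this list at an unadjusted p under 0.05, had counts of 28.9, 35.5, 38.2 and 9.34 in *Rragc* +/+ and 89.1, 31.1, 35.7 and 162 in *Rragc* S74N/+ livers (log2 fold change 1.32, SE 0.55, limma adjusted p = 0.846). Of 8 hepatocyte markers 6 were positive, with *Cps1* at 0.87 and *Alb* at 0.75 (limma adjusted p = 0.846 each). Clock genes that peak near dusk were tested for 7 of 10 (2 positive and 5 negative, median -0.31, *Hlf* -0.54 and *Nr1d2* 0.54), and those that peak near dawn for 4 of 5 (2 positive and 2 negative, *Arntl* 0.68 and *Clock* -0.36).

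Markers of other cells were read in the same way. Of 7 kidney markers 5 were listed, with a sum of 95.4 to 204 in *Rragc* +/+ and 24.5 to 64.3 in *Rragc* S74N/+ livers, mostly of *Kap* (95.7 ± 45.4 and 24.6 ± 19.1, SD, n = 4 each; log2 fold change -2.20, limma adjusted p = 0.846), while *Umod* and *Aqp2* were not listed. Of 8 pancreas markers only *Cela1* was listed, at 233 to 434 in *Rragc* +/+ and 92.2 to 239.6 in *Rragc* S74N/+ livers (log2 fold change -0.94, limma adjusted p = 0.846). All 7 Kupffer cell markers were tested, 5 positive and 2 negative, with a sum of 1702 to 3038 in *Rragc* +/+ and 1939 to 3262 in *Rragc* S74N/+ livers. Among them *Marco* (log2 fold change 1.82, limma adjusted p = 0.846, DESeq2 adjusted p = 0.00409) and *Adgre1* (0.80) had an unadjusted p under 0.05. Endothelial markers were split 3 and 3, with *Lyve1* (1.03) and *Pecam1* (0.88) at an unadjusted p under 0.05, and stellate cell markers 3 and 2, with *Col1a1* (0.96). Of all tested genes 2.37% were higher at that threshold. Endothelial markers summed to 1021 to 1328 in *Rragc* +/+ and 964 to 1329 in *Rragc* S74N/+ livers. For stellate cell markers the sums were 1755 to 2181 and 1633 to 2457, so the groups overlapped for both lists. The adipocyte marker *Lipe* was at 76.4 to 141 in *Rragc* +/+ and 85.7 to 184.5 in *Rragc* S74N/+ livers. The part of these cell types, of immediate early transcripts and of time of day in the *Igfbp1* and *Pck1* values was not tested.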

How the data were processed

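Whole-liver RNA of 8 mice was sequenced from the 3′ end of transcripts with a directional oligo-dT kit. In the submitters' processing notes the tools are FastQC 0.11.7, TopHat2 2.0.10, Bowtie 1.0.0, SAMtools 0.1.19 and HTSeq 0.6.1, with GRCm38 as genome. Reads were assigned to GENCODE genes by strand, and the authors deposited a signal per gene and liver, namely counts divided by a DESeq size factor. Every value (100%) was a whole multiple of 1 read to within 0.001 reads, so reads were recovered for edgeR and DESeq2. The protocol given for the livers names no molecular identifiers, so a read is not a molecule, and p-values measure the spread between these livers.

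Genotype was the only term of a limma 3.58.1 fit (R 4.3.3, mean-variance trend) to log2(normalized count + 1). Genes whose mean reached 10 were kept, 11174 of 14506, with Benjamini-Hochberg adjustment over all of them at 0.05. This scale understates the change of low genes. Ratios and correlations were tested by exact two-sided permutation in scipy 1.17.1, with p-values adjusted over 3 ratios and 72 pairs. The edgeR version was 4.0.16 and that of DESeq2 1.42.0. Other settings were pseudocounts of 0.1 and 5, a filter at 50 or none, TMM and upper-quartile scaling, no trend, array weights, a term for age in months, the mice aged 3 months alone, and leaving out each liver. Age as a factor and leaving out the livers aged 2.5 months were chosen after seeing the data. Correlations were also computed on values centred on the mean of each genotype. Scripts were tested on simulated counts.

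Genes named are the 10 listed genes, 4 references, *Rragc*, in each related list the genes at an unadjusted p under 0.05 or else the 2 with the smallest p, and the 3 genes most like each listed gene. One reference gene and one of the most alike genes are not reported here. Defining markers that were not listed were named besides. The members and lists were chosen with earlier results of these data known. Coordinates are from GENCODE M21 on GRCm38 and promoters from RefSeq on GRCm38.p6.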

Additional observations from a re-analysis of the deposited data

Results flagged for a closer look

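In each genotype of 4 livers, a value was marked when its gap to the nearest other liver, as a share of the group's range, exceeded Dixon's 95% limit for 4 values. Of 36 groups of values examined 5 were marked. Independent groups with a normal spread would give about 1.8. The groups here are not independent, because the ratios reuse listed genes, so no excess over chance is read from the 5.

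*Pdk4* in *Rragc* +/+ replicate 2 had a log2 level of 0, with no read, against 3.37 to 3.92 in the other *Rragc* +/+ livers. The log2 ratio of *Irs2* to *Irs1* in *Rragc* +/+ replicate 1 was 3.76, against 1.51 to 1.596 in the other 3. In *Rragc* S74N/+ replicate 3, aged 2.5 months, the log2 level of *Dbp* was 6.99, against 2.44 to 2.89, and that of *Arntl* 4.40, against 6.77 to 7.20. Recovered reads in *Rragc* +/+ replicate 3 numbered 4313076, against 6177759 to 6509465 in the other *Rragc* +/+ livers.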

How the results depend on the processing

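None of the 9 tested genes passed an adjusted p under 0.05 in any of the 22 other settings, while 1 to 4 of them had an unadjusted p under 0.05. The settings with 4 were those without *Rragc* S74N/+ replicate 3 and without the livers aged 2.5 months. There, 1690 and 1199 of all 11174 tested genes had an unadjusted limma p under 0.05, against 315 to 415 in the settings with 1. Of 198 log2 fold changes over genes and settings 195 kept their direction and 3 reversed, all on leaving out single livers. These were *Insr* (0.017 without *Rragc* S74N/+ replicate 1, range -0.34 to 0.017) and *Foxo1* (-0.062 without *Rragc* +/+ replicate 4 and -0.048 without *Rragc* S74N/+ replicate 1, range -0.062 to 0.17). *Igfbp1* ranged from 1.48 to 2.48, *Pck1* from 0.71 to 1.48, *G6pc* from 0.38 to 0.99 and *Ppargc1a* from 0.17 to 0.83 on leaving out single livers, and in the other settings from 1.53 to 2.47, 0.72 to 1.54, 0.63 to 1.29 and 0.17 to 1.078. Over all genes 1 gene passed the threshold in the limma fit, against 0 without the trend, with a term for age in months, in 3-month-old mice alone and without the livers aged 2.5 months (603, 415, 641 and 1199 genes at an unadjusted p under 0.05), 3 where age was a factor, 10 with DESeq2 and 0 to 2 on leaving out single livers. The difference in the log2 ratio of *Pck1* to *G6pc* was -0.31 in 3-month-old mice alone and that of *Irs2* to *Irs1* was 0.29 without *Rragc* +/+ replicate 1 (ranges on leaving out single livers 0.09 to 0.78 and -0.47 to 0.29). The cause of these changes was not tested. No paired analysis was possible because replicate numbers only name livers in sample order. With 4 livers a group the lowest counts, *Pdk4* and *Irs1*, are limited by depth.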
